A study of Mus musculus with 24 samples.

Results

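Integrin chains are described here in B lymphoma cells of Bcl6-transgenic mice. The 10 chains Itgal, Itgb2, Itgam, Itgax, Itga4, Itgb7, Itgb1, Itga6, Itgav and Itgb3 were chosen by name. All 10 have a row in the deposited table of 11140 genes, all 10 passed the filter on low counts that left 11020 genes for testing, and each was followed across 23 libraries. RNA came from splenic B lymphoma cells, purified from C57BL/6 mice. The T cell sufficient group held 12 lymphomas of the genotype Bcl6Tg/+. The T cell deficient group held 11 lymphomas of the genotype Bcl6Tg/+CD3Epsilon-/-, which carry the same Bcl6 transgene and lack CD3 epsilon, which T cells need to develop. No group without the transgene was part of the design, so the comparison is between lymphomas that arose with and without T cells. The sources used here give neither the promoter that drives the transgene nor the ages of the mice, nor how the cells were purified. Nothing in the labels says that each lymphoma came from a separate animal, so p-values measure the spread between these samples.

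An integrin is a pair of an alpha and a beta chain that spans the membrane and holds a cell to its neighbours or to matrix. Alpha chains choose among few beta chains, so the transcripts of both partners bear on which receptors a cell can build. Inside the cell, talin and kindlin bind the beta chain's tail and switch the receptor to its adhesive form, downstream of the small GTPase Rap1. On B cells of the spleen, LFA-1 (Itgal with Itgb2) binds ICAM-1 and the α4 integrins (Itga4 with Itgb1 or Itgb7) bind VCAM-1, and both help to keep B cells in the splenic marginal zone. The α4β7 receptor also binds MAdCAM-1, which directs lymphocytes to the gut. Itgam and Itgax pair with Itgb2 and are best known from myeloid cells, Itga6 pairs with Itgb1 to bind laminin, and Itgav pairs with Itgb3 or Itgb1 to bind matrix proteins such as vitronectin.

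Of the 10 chains, 4 were lower and 1 was higher in T cell deficient lymphomas. The α4β7 pair showed the largest falls, Itga4 by 8.50-fold and Itgb7 by 7.50-fold. Itgam, the CD11b chain, was 5.98-fold lower, and Itgb2, the beta chain it shares with LFA-1, was 1.98-fold lower. Itgb3 went the other way and was 5.14-fold higher. Itgal, Itgb1, Itga6, Itgav and Itgax did not pass the test. A gene is called when its Benjamini-Hochberg adjusted p in edgeR's quasi-likelihood fit, which includes sequencing run as a term, is under 0.05. Of all tested genes, 22.2% were called, with 10.6% higher and 11.7% lower in deficient lymphomas. The log2 fold changes (deficient over sufficient) of the 10 chains had a median of -0.75 and 8 were negative, beside a median of -0.01 and 50.8% negative over all tested genes. No chain separated the groups completely, as 0.163% of tested genes did.

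Before the values, the sequences upstream of 3 of the chains that fell are shown, since Itga4, Itgb7 and Itgam had the largest falls. RefSeq promoter windows on GRCm38.p6 matched 6 of the 10 chains, namely Itga4, Itgb7, Itgam, Itgax, Itgav and Itgb1. Itgal, Itgb2, Itga6 and Itgb3 are named only. Each sequence below is the 250 bases before the RefSeq gene start, written 5′ to 3′ on the strand of the gene. Itga4 is chr2:79255176-79255425 on the plus strand, Itgb7 is chr15:102231936-102232185 on the minus strand and Itgam is chr7:128062390-128062639 on the plus strand. Capitals mark the cores of 3 factor families known from leukocyte genes, searched on both strands. They are CACCC (KLF family, GGGTG on the other strand), GAGGAA (ETS factors of the PU.1 type, TTCCTC on the other strand) and TGTGGT (RUNX family, ACCACA on the other strand).
Itga4: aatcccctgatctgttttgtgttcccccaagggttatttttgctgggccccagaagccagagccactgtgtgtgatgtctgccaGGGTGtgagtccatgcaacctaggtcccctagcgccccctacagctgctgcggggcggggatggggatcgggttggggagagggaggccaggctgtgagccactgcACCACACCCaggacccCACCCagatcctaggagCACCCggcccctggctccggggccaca
Itgb7: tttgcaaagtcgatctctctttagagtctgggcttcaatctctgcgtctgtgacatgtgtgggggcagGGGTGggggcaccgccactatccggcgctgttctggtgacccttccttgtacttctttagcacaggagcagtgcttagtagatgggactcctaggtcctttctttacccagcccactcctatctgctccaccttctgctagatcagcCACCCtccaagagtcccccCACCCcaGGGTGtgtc
Itgam: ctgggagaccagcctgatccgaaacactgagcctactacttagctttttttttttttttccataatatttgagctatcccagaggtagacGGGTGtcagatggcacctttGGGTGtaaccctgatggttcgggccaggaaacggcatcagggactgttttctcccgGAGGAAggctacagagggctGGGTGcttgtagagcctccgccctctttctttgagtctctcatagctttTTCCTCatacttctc

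The α4 and β7 windows each hold 4 KLF cores, in Itgb7 within 182 bases of the start and in Itga4 within 166. Among 32817 RefSeq windows of the same length, 52.0% hold this core at least 1 time and 2.14% hold it 4 or more times. The Itga4 window also holds 1 RUNX core, which overlaps a KLF core by sharing its first bases, and 14.0% of windows hold a RUNX core. Neither window holds the ETS core. The Itgam window holds 2 ETS cores, 84 and 15 bases before the start, and 3 KLF cores. The ETS core is in 23.3% of windows, and 3.54% hold 2 or more. Chains that did not pass the test hold such cores too. The Itgav window holds 2 ETS cores and 1 KLF core, and the Itgb1 window holds 2 KLF cores and 1 ETS core. The Itgax window, of a chain that did not pass either, holds none of the 3 cores. These matches describe letters and not binding.

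Levels are given as CPM (counts scaled to the library total), further scaled by TMM, edgeR's correction of library size. Libraries held between 7.58 and 30.6 M counts (M, mega). They averaged 15.7 M ± 6.00 (SD, n = 12) in the sufficient and 20.6 M ± 6.03 (SD, n = 11) in the deficient group, so 3 counts were worth 0.0980 to 0.396 CPM. Run 1 held 7 sufficient and 5 deficient libraries, and run 2 held 5 and 6. Of the 23 libraries, 3 held both Xist and Y-linked transcripts (each above 10 CPM). They were sufficient 9, 10 and 11, all of run 2, and without them the same counts of 1 higher and 4 lower chains were found. Y-linked transcripts alone passed this level in sufficient 4, 5, 6 and 7 and in deficient 1, 3, 4, 6, 7, 8, 9 and 11. Xist alone did so in sufficient 1, 3, 8 and 12 and in deficient 2, 5 and 10, and neither did in sufficient 2. The groups were thus uneven in these transcripts, also within run 2. Sex was not a term of the fit, and its part in the group differences was not tested. The 12 B cell markers all had a row, and their summed level ran from 7712 to 13955 CPM in sufficient and from 5253 to 13446 CPM in deficient libraries. Among these markers, Cd79a, Cd79b and Cd22 were lower in deficient lymphomas. Cd3e averaged 0.966 CPM against 2.47 CPM (edgeR adjusted p = 0.179), and because the deleted part of the gene is not given, it does not check the genotype.

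**Figure D1:**
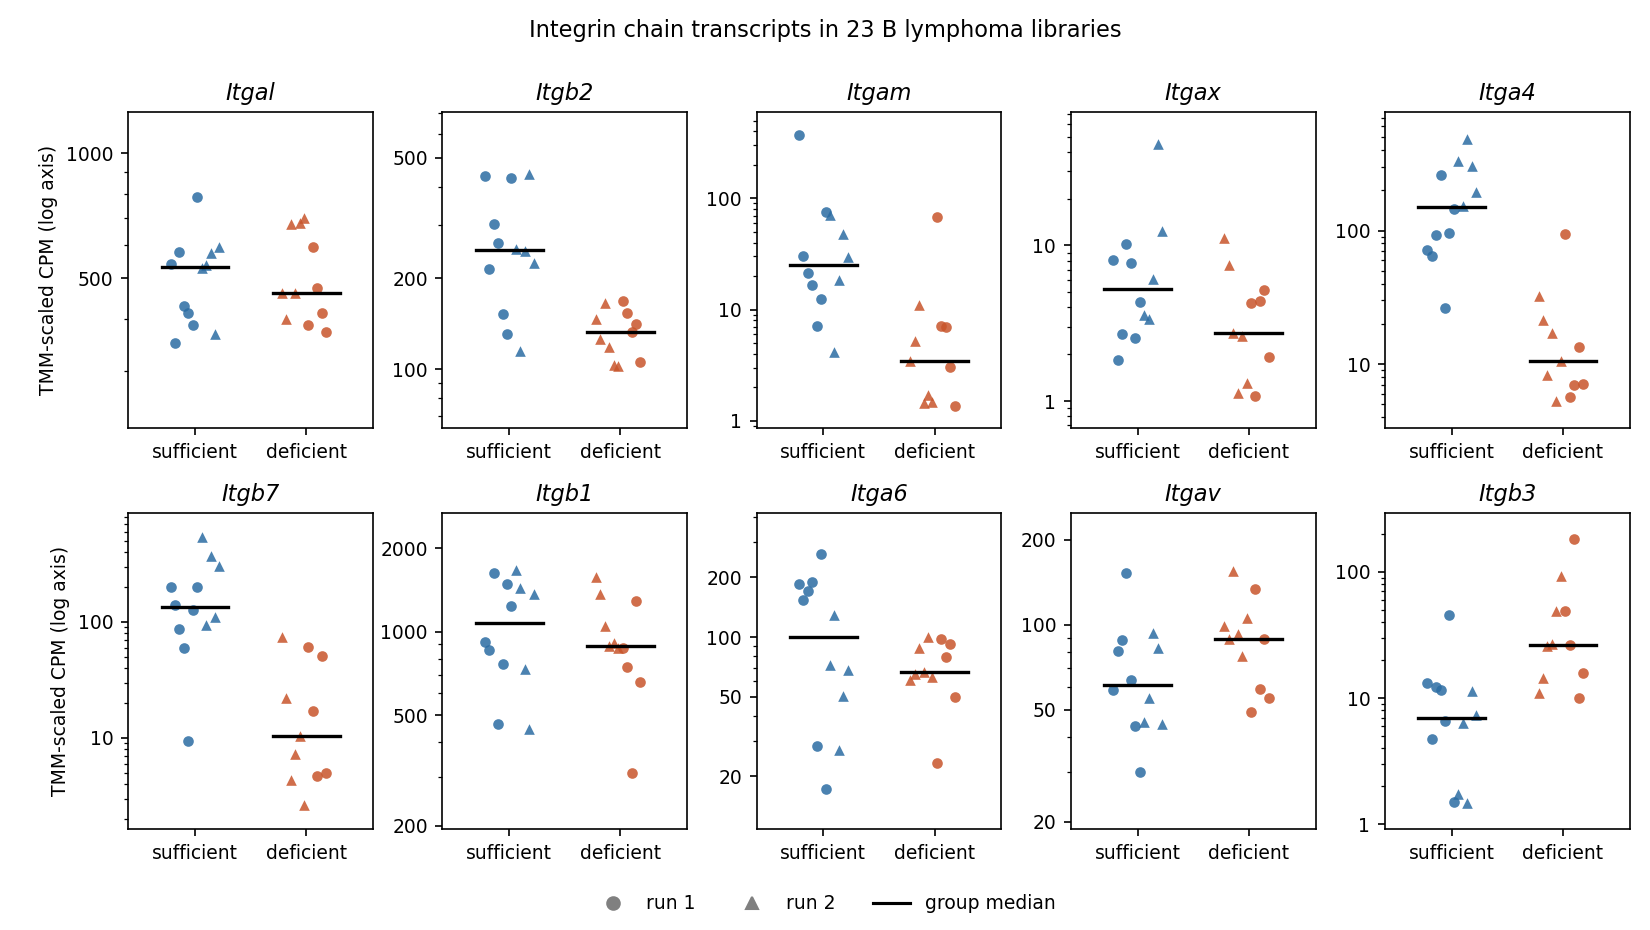
TMM-scaled CPM (log axes) of the 10 integrin chains, 1 point per library, circles for run 1 and triangles for run 2, with a black line at each group's median. For Itga4, 9 of the 11 deficient libraries sit below every sufficient library, while the groups of Itgal and Itgb1 lie over each other.

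Itga4, the α4 chain, lies on the plus strand of chromosome 2, from 79255426 to 79333123 (GENCODE M21, GRCm38). In sufficient lymphomas it ran from 26.2 to 480 CPM with a median of 149. In deficient lymphomas it ran from 5.32 to 94.2 CPM with a median of 10.7. Thus 9 of 11 deficient libraries were below every sufficient library, and 8 of 12 sufficient libraries were above every deficient library. The library that bridged the groups was deficient 7, at 94.2 CPM, and the next highest deficient library was deficient 1, at 32.6 CPM. The lowest sufficient library was sufficient 5, at 26.2 CPM. The log2 fold change was -3.09 ± 0.56 SE (edgeR adjusted p = 0.00101), and without deficient 7 it was -3.95 (edgeR adjusted p = 1.88e-05).

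The fall of Itga4 was larger in run 2, at -4.20 (edgeR adjusted p = 0.00192), than in run 1, at -2.10 (edgeR adjusted p = 0.234). The sufficient libraries of run 2 had a median of 303 CPM and those of run 1 had 92.5 CPM, against 13.9 and 7.07 CPM in the deficient libraries. The interaction of group and run for Itga4 was -2.12 ± 0.93 SE and did not pass (edgeR adjusted p = 0.757). It was the 1 chain of 10 with an unadjusted interaction p under 0.05, as were 723 of the 11020 genes, and 0% of genes passed with adjustment. Itga4 overlaps Cerkl on the opposite strand, and the strand setting of the counts is not given. Cerkl averaged 3.69 CPM in sufficient and 1.46 CPM in deficient lymphomas (log2 fold change -1.47 ± 0.63 SE, edgeR adjusted p = 0.0951), so reads of this pair cannot be told apart.

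Itgb7, the β7 chain, lies on the minus strand of chromosome 15, from 102215995 to 102231944. Its sufficient libraries ran from 9.40 to 542 CPM with a median of 133, and its deficient libraries from 2.62 to 73.9 CPM with a median of 10.5. Here 10 of 12 sufficient libraries were above every deficient library and all 11 deficient libraries were below the sufficient median. The lowest sufficient value again came from sufficient 5. The highest deficient values were 73.9 CPM in deficient 1, 60.9 CPM in deficient 7 and 51.2 CPM in deficient 10. Its log2 fold change was -2.91 ± 0.65 SE (edgeR adjusted p = 0.00362), with -2.08 in run 1 (edgeR adjusted p = 0.235) and -3.82 in run 2 (edgeR adjusted p = 0.0221).

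Itgb1, the β1 chain that also pairs with α4, lies on the plus strand of chromosome 8, from 128685654 to 128733200. It ran from 446 to 1675 CPM with a median of 1078 in sufficient lymphomas. In deficient lymphomas it ran from 310 to 1582 CPM with a median of 888. The groups overlapped over nearly their whole range, with 1 deficient library below every sufficient library and 2 sufficient libraries above every deficient library. The group difference was -0.24 ± 0.25 SE on the log2 scale (edgeR adjusted p = 0.507), with a 95% interval from -0.73 to 0.25.

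Levels of different chains can be set beside each other only per length, here as TMM-scaled CPM per kilobase of merged exons. By that measure Itgb1 had the highest median of the chains in both groups and exceeded Itgal, the next in order, in every library. Of the combined per-kilobase level of Itgb1 and Itgb7, the Itgb7 share ran from 1.78% to 42.9% with a median of 19.3% in sufficient lymphomas. In deficient lymphomas the share ran from 0.439% to 9.33% with a median of 2.19%, and 9 of 12 sufficient libraries were above every deficient library. The ratio of the α4 and β7 chains differed less between the groups. The log2 ratio of Itga4 to Itgb7 per kilobase had a median of -2.50 in sufficient and -1.84 in deficient lymphomas. Its means lay in the other order, at -2.22 ± 1.13 (SD, n = 12) and -2.32 ± 1.27 (SD, n = 11). The log2 ratio of Itga4 to Itgb1 had medians of -4.94 and -8.14, and 10 of 11 deficient libraries were below every sufficient library. These ratios are described and were not tested.

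**Figure D2:**
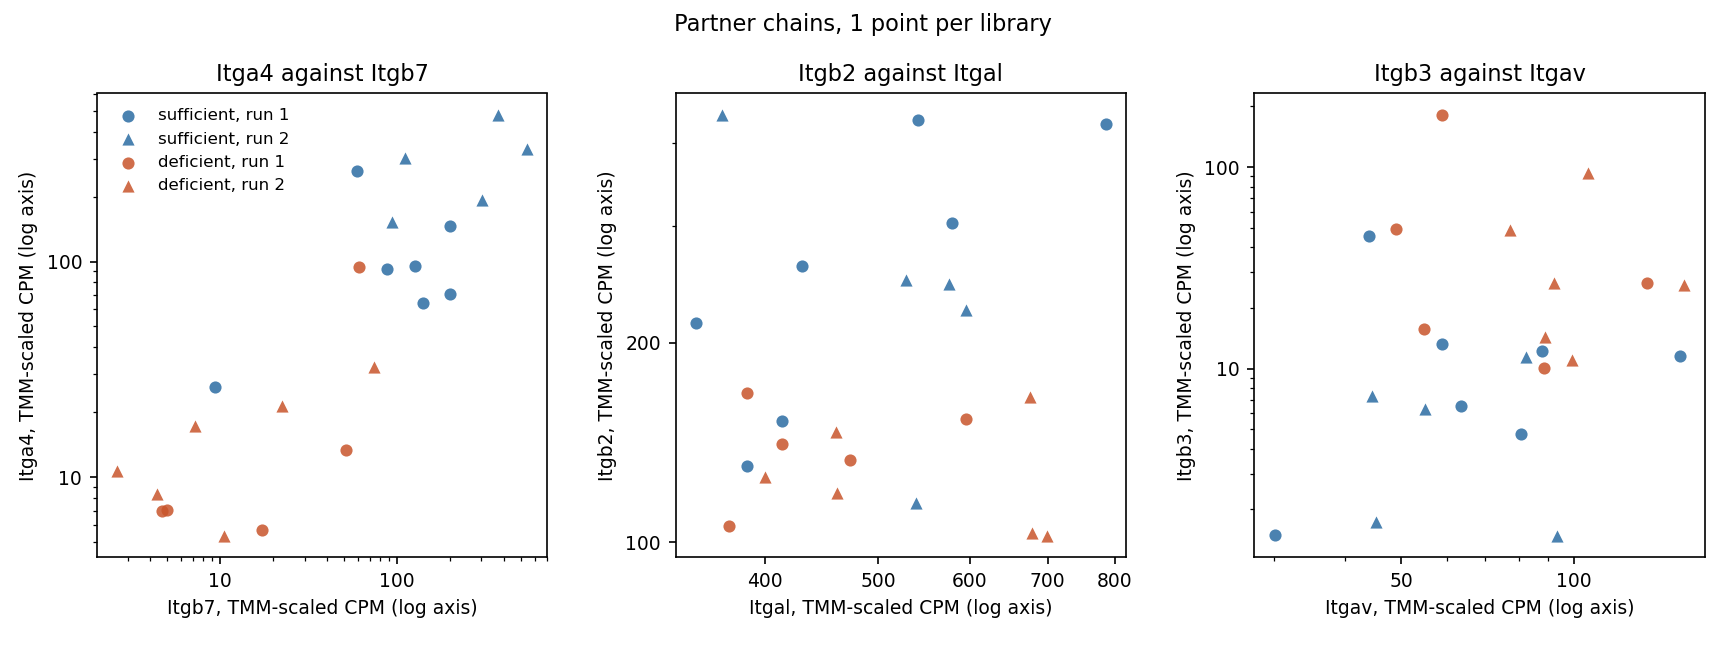
TMM-scaled CPM of partner chains against each other (both axes log), 1 point per library, blue for sufficient and red for deficient, circles for run 1 and triangles for run 2. Itga4 and Itgb7 are low together in most deficient libraries, but Itgb7 is at 51.2 to 73.9 CPM in deficient 1, 7 and 10. Itga4 is at 94.2 CPM in deficient 7. Itgb2 is lower at like levels of Itgal (349 to 785 CPM), and Itgb3 is higher at overlapping levels of Itgav (30.1 to 155 CPM).

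Itgb2, the β2 chain shared by the leukocyte integrins, lies on the plus strand of chromosome 10, from 77530252 to 77565708. It ran from 115 to 442 CPM with a median of 247 in sufficient lymphomas. In deficient lymphomas it stayed in a narrow band, from 102 to 168 CPM with a median of 133. Of the 12 sufficient libraries, 9 were above every deficient library. The other 3 sufficient libraries lay within the deficient range, and the deficient group's SD of 24.2 CPM was below the 115 CPM of the sufficient group. For Itgb2 the log2 fold change was -0.99 ± 0.21 SE (edgeR adjusted p = 0.00246), and the runs gave nearly the same value, -0.98 in run 1 (edgeR adjusted p = 0.161) and -1.001 in run 2 (edgeR adjusted p = 0.0396).

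Itgal, the CD11a chain that makes LFA-1 with Itgb2, lies on the plus strand of chromosome 7, from 127296260 to 127335138. It ran from 349 to 785 CPM with a median of 534 in sufficient and from 372 to 699 CPM with a median of 461 in deficient lymphomas. The ranges covered each other, with means of 507 ± 125 CPM (n = 12, SD) and 510 ± 127 CPM (n = 11, SD). Itgal had a log2 fold change of -0.03 ± 0.14 SE (edgeR adjusted p = 0.918), the 95% interval ran from -0.31 to 0.26, and the sign turned under other settings (0.043 with library totals alone in place of TMM). Per kilobase, the log2 ratio of Itgb2 to Itgal had a median of 0.10 in sufficient and -0.72 in deficient lymphomas. Itgb2 exceeded Itgal in 7 of 12 sufficient libraries and in 0 of 11 deficient libraries.

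Itgam, the CD11b chain of the complement receptor Mac-1, lies on the plus strand of chromosome 7, from 128062640 to 128118491, 11.1 kb before Itgax. It ran from 4.18 to 372 CPM with a median of 25.3 in sufficient lymphomas. In deficient lymphomas it ran from 1.37 to 67.5 CPM with a median of 3.47. Here 6 of 11 deficient libraries were below every sufficient library and 3 of 12 sufficient libraries were above every deficient library. The highest value came from sufficient 1, at 372 CPM, where the next sufficient library was at 74.7 CPM, and the highest deficient value came from deficient 7. The second highest deficient library was at 11.0 CPM.

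The log2 fold change of Itgam was -2.58 ± 0.75 SE (edgeR adjusted p = 0.0173), with -2.17 in run 1 (edgeR adjusted p = 0.392) and -3.06 in run 2 (edgeR adjusted p = 0.0243). Without sufficient 1 it was -1.85 and no longer passed (edgeR adjusted p = 0.0622), which leaves 3 chains lower. Without deficient 7 it was -3.52 (edgeR adjusted p = 0.00286). Sufficient 1 is the deepest library, and its column may hold 1 or both of the libraries made from that sample. Itgam was also the chain that differed most between runs, lower in run 2 by a log2 value of -1.60 (edgeR adjusted p = 0.0882). No chain passed between runs, and Itgam alone had an unadjusted p under 0.05, where 36.3% of all tested genes were called.

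Itgax, the CD11c chain, lies on the plus strand of chromosome 7, from 128129547 to 128150657 and had the lowest median per kilobase of the chains in both groups. It ran from 1.85 to 44.8 CPM with a median of 5.23 in sufficient and from 1.07 to 11.1 CPM with a median of 2.73 in deficient lymphomas. The groups overlapped, with 3 deficient libraries below every sufficient library and 2 sufficient libraries above every deficient library. The log2 fold change was -1.15 ± 0.50 SE and did not pass (edgeR adjusted p = 0.0964). Without sufficient 11, the library at 44.8 CPM, it was -0.61 (edgeR adjusted p = 0.335). Per kilobase, Itgal made up a median of 91.9% of the sum of Itgal, Itgam and Itgax in sufficient and 97.4% in deficient lymphomas. Its lowest shares were 52.1% and 80.4%.

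Because Itgam and Itgax also mark other cells, the markers of those cells were read beside them. Of 26 monocyte and macrophage markers, 24 have a row, and Adgre1 and Vsig4 have none. Their summed level ran from 689 to 4942 CPM with a median of 1395 in sufficient and from 314 to 1301 CPM with a median of 717 in deficient lymphomas. The sum averaged 1576 CPM in sufficient and 733 CPM in deficient lymphomas. Mpeg1 had the highest mean of the 24 in both groups, at 514 CPM and 293 CPM. Of the 24, 8 were lower, 0 were higher and 16 did not pass in edgeR's test, and all 24 log2 fold changes fitted over both runs were negative. Their median was -1.02, with -0.19 in run 1 and -2.00 in run 2. The 8 were Lyz1, Lyz2, Mpeg1, Ccr2, Ly6c2, Sirpa, Lgals3 and Cx3cr1. Among all tested genes, 11.7% were lower and 10.6% were higher. The receptor Csf1r, a defining macrophage gene, averaged 91.5 ± 113 CPM (n = 12, SD) against 49.0 ± 34.5 CPM (n = 11, SD) and did not pass (edgeR adjusted p = 0.251). In run 1 the log2 fold changes of the 24 markers ran from -4.17 for Ly6c2 to 1.22 for Marco.

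By library, sufficient 1 had the highest Itgam and ranked 7th of 23 for the macrophage sum, at 1303 CPM. Sufficient 11 had the highest Itgax and the highest macrophage sum, at 4942 CPM. The part of these cells in the values of Itgam, Itgax and Itgb2 was not tested, and in bulk RNA fewer cells of a type and less RNA per cell cannot be told apart. Of 14 neutrophil markers, 6 have a row and 4 were tested, and none of these passed. Their sum was between 0.925 and 87.9 CPM in sufficient and between 2.01 and 178 CPM in deficient libraries. The sum of 178 CPM came from deficient 7, the highest deficient library for Itga4, Itgam and Itgb2. That library also had the lowest B cell marker sum of the 23, at 5253 CPM. It ranked 12th for the macrophage sum, at 869 CPM. Whether its cell makeup bears on its integrin values was not tested. Of 12 dendritic cell markers, 6 have a row. Flt3, a cytokine receptor of dendritic cell precursors, and Xcr1 were higher and Cst3 and Ccr7 were lower.

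**Figure D3:**
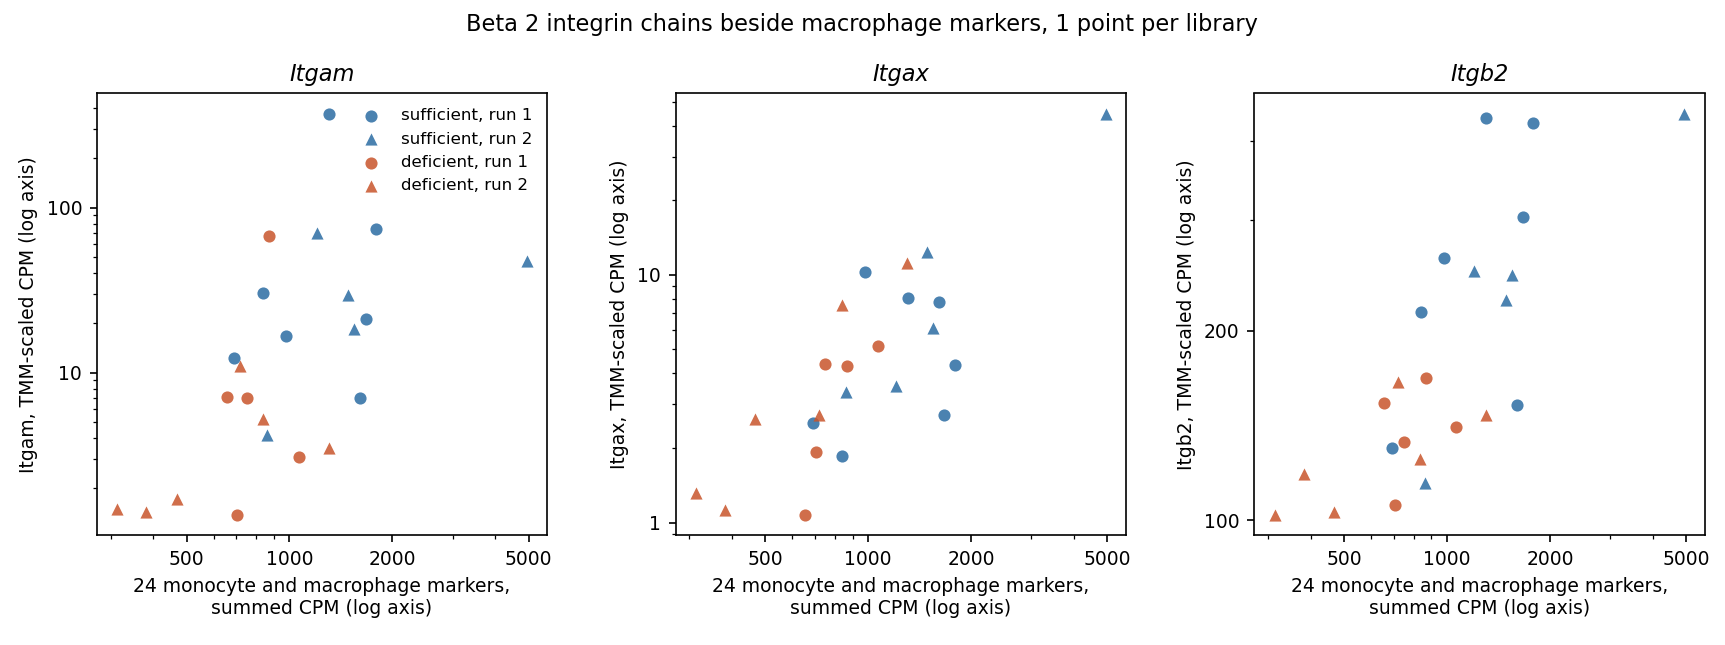
TMM-scaled CPM of Itgam, Itgax and Itgb2 against the summed CPM of 24 monocyte and macrophage markers (both axes log), 1 point per library, blue for sufficient and red for deficient, circles for run 1 and triangles for run 2. Sufficient 11, at a marker sum of 4942 CPM, stands to the right of all others and has the highest Itgax, while the highest Itgam, 372 CPM, is at a marker sum of 1303 CPM.

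Itga6, the laminin-binding α6 chain, lies on the plus strand of chromosome 2, from 71745616 to 71858416. It ran from 17.3 to 263 CPM with a median of 100.2 in sufficient lymphomas. In deficient lymphomas it ran from 23.2 to 99.7 CPM with a median of 66.4. All 11 deficient libraries were below the sufficient median, yet 1 sufficient library was below every deficient library and 6 were above every deficient library. The sufficient group was the more spread, with an SD of 79.7 CPM against 23.02 CPM. Itga6 had a log2 fold change of -0.50 ± 0.39 SE (edgeR adjusted p = 0.365), and its sign differed between runs, -1.06 in run 1 and 0.10 in run 2. The sufficient libraries of run 1 had a median of 170 CPM and those of run 2 had 67.9 CPM.

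Itgav, the αv chain, lies on the plus strand of chromosome 2, from 83724397 to 83806916. It ran from 30.1 to 153 CPM with a median of 61.1 in sufficient and from 48.9 to 155 CPM with a median of 88.8 in deficient lymphomas. The groups overlapped, with 8 of 11 deficient libraries above the sufficient median. For Itgav the log2 fold change was 0.36 ± 0.24 SE and did not pass (edgeR adjusted p = 0.293), with a 95% interval from -0.12 to 0.84.

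Itgb3, the β3 chain that pairs with αv, lies on the plus strand of chromosome 11, from 104608000 to 104670476. It ran from 1.47 to 45.6 CPM with a median of 6.93 in sufficient lymphomas. In deficient lymphomas it ran from 10.03 to 182 CPM with a median of 26.4. All 11 deficient libraries were above the sufficient median, 7 of 12 sufficient libraries were below every deficient library, and 4 deficient libraries were above every sufficient library. The highest values were 182 CPM in deficient 9 and 93.3 CPM in deficient 6, and the sufficient library at 45.6 CPM, sufficient 6, had no other sufficient library above 13.2 CPM. The log2 fold change was 2.36 ± 0.57 SE (edgeR adjusted p = 0.00648), with 2.05 in run 1 (edgeR adjusted p = 0.249) and 2.70 in run 2 (edgeR adjusted p = 0.0318). Without deficient 9 it was 1.85 (edgeR adjusted p = 0.0314).

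Itgb3 also pairs with Itga2b on platelets, so platelet markers were read beside it. Of 12 platelet and megakaryocyte markers, Clec1b alone has a row. It ran from 0.305 to 6.32 CPM in sufficient and from 0.188 to 1.98 CPM in deficient lymphomas and did not pass (log2 fold change -0.79 ± 0.54 SE, edgeR adjusted p = 0.299). Per kilobase, the log2 ratio of Itgav to Itgb3 had a median of 2.34 in sufficient and 0.94 in deficient lymphomas. Of the 3 alpha chains Itga4, Itga6 and Itgav, Itgav made up a median of 18.7% per kilobase in sufficient and 48.6% in deficient lymphomas. Itga4 made up 35.4% and 4.53%, and Itga6 made up 34.1% and 42.8%.

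**Figure D4:**
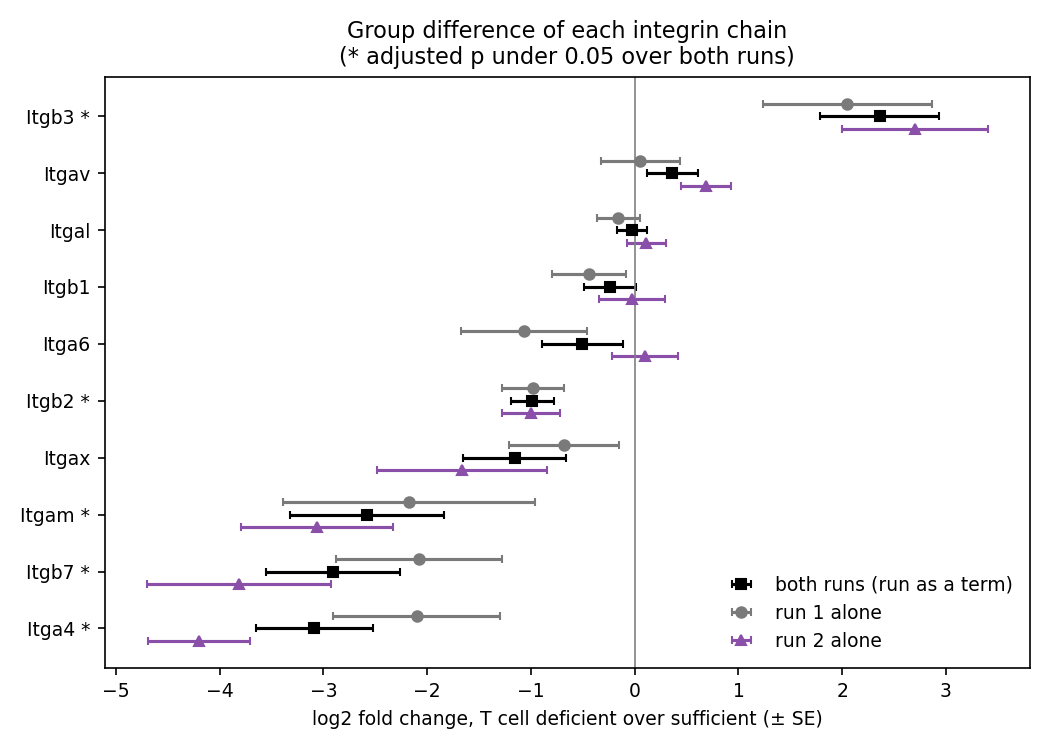
Log2 fold change (deficient over sufficient) of each integrin chain with its SE as a bar, over both runs (black squares), in run 1 alone (grey circles) and in run 2 alone (purple triangles), with an asterisk for an adjusted p under 0.05 over both runs. The 5 marked chains have the same sign in both runs, and Itga6 and Itgal change sign between them.

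Within run 1 alone no chain passed edgeR's test and 4 had an unadjusted p under 0.05. In that run 0% of 11064 tested genes were called, and 1832 had an unadjusted p under 0.05. Within run 2 alone the same counts of 4 lower and 1 higher chains were called, beside 12.3% of all tested genes. The median log2 fold change of the chains was -0.83 in run 1 and -0.51 in run 2.

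By median level per kilobase, Itgb1, Itgal and Itgb2 came first in both groups, in that order, and Itgax came last. The order of the other chains differed between the groups. In sufficient lymphomas the medians in CPM per kilobase were 264 for Itgb1, 81.2 for Itgal, 80.9 for Itgb2 and 48.1 for Itgb7. They were 11.1 for Itga6, 10.7 for Itga4, 5.69 for Itgav, 5.04 for Itgam, 1.17 for Itgb3 and 1.09 for Itgax. Itgb1 exceeded Itgal in 12 of 12 libraries and Itgb7 exceeded Itga6 in 12 of 12. Other neighbours were not apart, as Itgal exceeded Itgb2 in 5 of 12 libraries, Itga6 exceeded Itga4 in 7 and Itgb3 exceeded Itgax in 5.

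In deficient lymphomas the medians in CPM per kilobase were 217 for Itgb1, 70.2 for Itgal, 43.6 for Itgb2 and 8.26 for Itgav. They were 7.36 for Itga6, 4.48 for Itgb3, 3.78 for Itgb7, 0.763 for Itga4, 0.690 for Itgam and 0.568 for Itgax. Each of the first 3 exceeded its next neighbour in 11 of 11 libraries, and Itgb7 exceeded Itga4 in 11 of 11. The order of Itgb7 and Itga4 rests on merged exon lengths of 2.77 kb and 13.978 kb, as their medians in CPM were 10.5 and 10.7. Whether all merged exons are expressed in these cells was not tested. The lower neighbours mixed, with Itgam above Itgax in 6 of 11 libraries.

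Partner chains were also compared by how they varied among libraries after the means of run and group were removed. Over 23 libraries and 8 alpha and beta pairs, Itgam and Itgb2 varied most closely together (Pearson r = 0.761, Spearman rho = 0.828), and r was 0.779 without the 2 libraries farthest from the median of Itgam. Itga4 and Itgb7 had r = 0.671 and rho = 0.632, and r = 0.494 without deficient 7 and sufficient 5. Itga4 with its other partner Itgb1 had r = 0.03, and Itgal with Itgb2 had r = 0.22. Itgav with Itgb3 had r = 0.05. These are descriptions over libraries that share runs, depth and cell makeup.

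By the same measure, the genes most like each chain among all tested genes were named as a description. S1pr1, a receptor that guides lymphocytes out of tissues, was nearest to Itgb7 (r = 0.863), followed by Hhex (0.858) and Fry (0.846). Itga4 was nearest to Cmah (0.795), Slc17a9 (0.778) and Akt2 (0.768). Itgb2 was nearest to Tmem9b (0.876), Tmbim4 (0.822) and Ppard (0.815), and Itgam to Pycard, an inflammasome adaptor (0.799), Ptplad1 (0.770) and Poc5 (0.767). Itgax was nearest to Fpr2, a formyl peptide receptor of myeloid cells (0.897), Lgals3, a galectin of macrophages (0.883), and Lcp2 (0.871). For Itgb3 the nearest were Ptrhd1 (0.843), Ccar1 (0.799) and Phf10 (0.771). The first 3 for Itgal were Was (0.763), F9 (0.761) and Med14 (0.752), for Itgb1 Baiap2l1 (0.804), Shank2 (0.799) and Pik3c2b (0.777), for Itga6 Lyl1 (0.798), Tlk1 (0.793) and Bnip3 (0.784), and for Itgav Atp6v0a1 (0.870), Smim13 (0.806) and Ranbp9 (0.802).

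The machinery that activates integrins and ties them to the cytoskeleton was read from a list of 62 genes, of which 55 were tested. In deficient lymphomas 14 were lower, 3 were higher and 38 did not pass, with a median log2 fold change of -0.21. Of all tested genes, 11.7% were lower and 10.6% were higher. Cib1, which binds integrin tails, averaged 30.4 ± 12.5 CPM (n = 11, SD) against 86.3 ± 41.0 CPM (n = 12, SD) in sufficient lymphomas (log2 fold change -1.43 ± 0.21 SE, edgeR adjusted p = 0.000232). Rac2, a GTPase of blood cells that remodels actin, averaged 900 ± 312 CPM (n = 11, SD) against 1867 ± 539 CPM (n = 12, SD; edgeR adjusted p = 0.00114). Rassf5, the Rap1 effector that activates LFA-1, fell by 1.39 on the log2 scale (edgeR adjusted p = 0.00122). Cytip, a scaffold that restrains LFA-1 adhesion, averaged 16.7 ± 16.4 CPM (n = 11, SD) against 128 ± 79.6 CPM (n = 12, SD; edgeR adjusted p = 0.00137). The calls thus hold both activators and a restrainer of LFA-1. Rap1gap, named for its action on Rap1, was also lower (log2 fold change -2.78 ± 0.60 SE, edgeR adjusted p = 0.00298). The other called genes of the list were not sorted by role.

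Talins, kindlins and Itgb1bp1, which bind the tails of beta chains, were picked out after their values were seen. Fermt3, the kindlin of blood cells, averaged 147 ± 52.4 CPM (n = 11, SD) against 323 ± 107 CPM (n = 12, SD; log2 fold change -1.13 ± 0.22 SE, edgeR adjusted p = 0.00161). Tln1, talin, averaged 556 ± 102 CPM (n = 11, SD) against 878 ± 362 CPM (n = 12, SD; log2 fold change -0.67 ± 0.15 SE, edgeR adjusted p = 0.00388). Tln2, the other talin, averaged 5.02 CPM against 4.08 CPM and did not pass (log2 fold change 0.26 ± 0.62 SE, edgeR adjusted p = 0.793). Itgb1bp1 averaged 34.4 CPM against 40.9 CPM and did not pass either (log2 fold change -0.18 ± 0.09 SE, edgeR adjusted p = 0.151). Among the genes that rose were the scaffold proteins Git1 (log2 fold change 0.35 ± 0.10 SE, edgeR adjusted p = 0.0123) and Bcar1 (1.62 ± 0.44 SE, edgeR adjusted p = 0.0129).

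**Figure D5:**
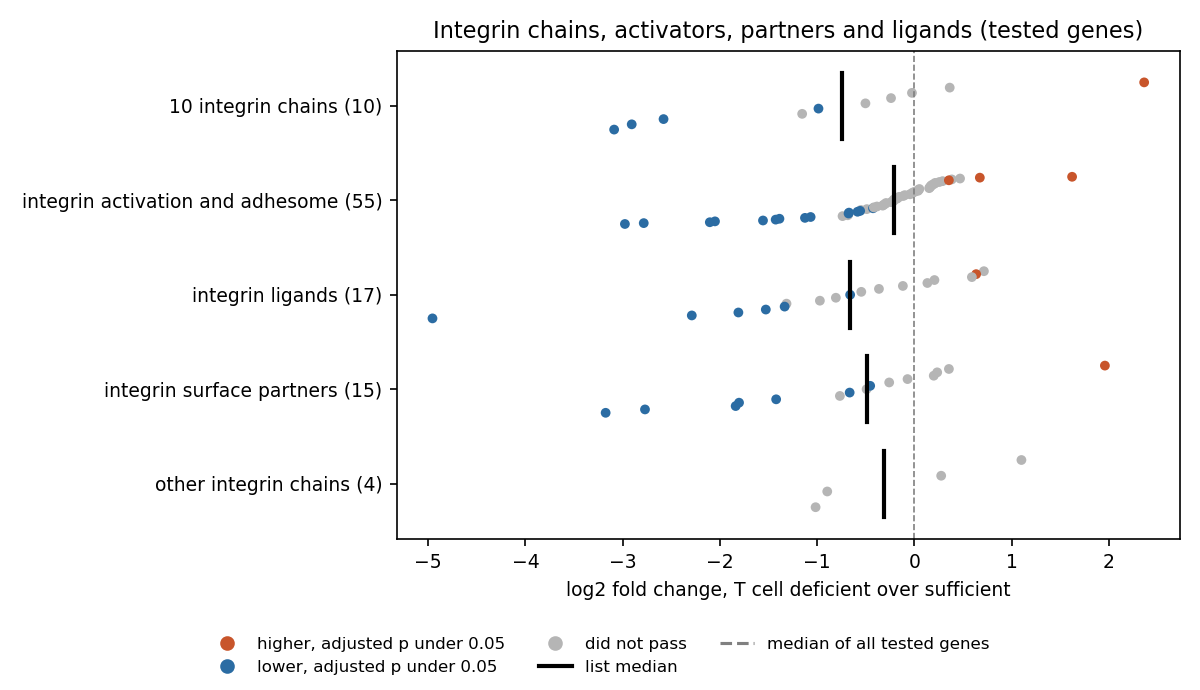
Log2 fold changes (deficient over sufficient) of the tested genes of each list, 1 point per gene, blue for lower and red for higher at an adjusted p under 0.05, grey for genes that did not pass, with a black line at each list's median and a dashed line at the median of all tested genes (-0.01). The list medians are -0.75 for the 10 chains, -0.21 for activation and adhesome genes, -0.66 for ligands, -0.49 for surface partners and -0.31 for the other integrin chains.

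Membrane proteins that sit beside integrins showed 7 lower and 1 higher of 15 tested genes, with a median log2 fold change of -0.49. Over all tested genes the shares were 11.7% lower and 10.6% higher. Cd53, a tetraspanin of leukocytes, averaged 131 ± 69.4 CPM (n = 11, SD) against 456 ± 147 CPM (n = 12, SD), lower by a log2 value of -1.84 ± 0.25 SE (edgeR adjusted p = 0.000151). Tspan32, another tetraspanin, averaged 20.2 CPM against 52.9 CPM (edgeR adjusted p = 0.00298). Plaur, the urokinase receptor that binds Itgam and Itgb3 integrins, averaged 1.62 ± 2.01 CPM (n = 11, SD) against 17.8 ± 26.3 CPM (n = 12, SD; edgeR adjusted p = 0.0042). Emb, embigin, was the gene that rose, at 113 ± 36.5 CPM (n = 11, SD) against 38.9 ± 37.2 CPM (n = 12, SD; edgeR adjusted p = 0.0223). Cd47, a partner of Itgav and Itgb3, did not pass, at 136 CPM against 193 CPM (edgeR adjusted p = 0.0704).

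Of 41 ligand genes, 17 were tested, and 6 were lower, 1 was higher and 10 did not pass, with a median log2 fold change of -0.66. The shares of all tested genes were 11.7% lower and 10.6% higher. Of the ICAM family, ligands of LFA-1, Icam1, Icam2 and Icam5 were tested, and differences between their changes were not tested. Icam2 averaged 28.4 ± 6.78 CPM (n = 11, SD) against 46.5 ± 14.7 CPM (n = 12, SD; edgeR adjusted p = 0.00571), and Icam1 averaged 164 CPM against 143 CPM and did not pass (edgeR adjusted p = 0.335). Icam5 averaged 3.66 CPM against 1.95 CPM and did not pass (log2 fold change 0.71 ± 0.38 SE, edgeR adjusted p = 0.181). Vcam1, the ligand of α4 integrins, averaged 99.3 CPM against 108 CPM (edgeR adjusted p = 0.9). F11r, a junction molecule that binds LFA-1, averaged 2.46 CPM against 12.9 CPM (edgeR adjusted p = 0.00348). Adam9, a membrane protease, was the ligand that rose, by a log2 fold change of 0.63 ± 0.13 SE (edgeR adjusted p = 0.00194). Col1a1, a collagen of connective tissue cells, averaged 0.223 CPM against 7.49 CPM (edgeR adjusted p = 0.000151), and its deficient libraries ran from 0 to 0.621 CPM, near the worth of 3 counts.

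Beside these values, the authors' deposited table gives log2 fold changes of -3.59 for Itga4 (adjusted p = 4.68e-05), -3.54 for Itgb7 (0.00103), -0.88 for Itgb2 (0.00509) and 2.15 for Itgb3 (0.0332). For Itgam the authors' deposited table gives -2.69 with an adjusted p of 0.0507, which is not under 0.05. For Itgax the authors' deposited table gives -1.27 (0.065), and its adjusted p was at least 0.189 for Itgal, Itgb1, Itga6 and Itgav.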

How the data were processed

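RNA of purified B lymphoma cells was sequenced from TruSeq libraries, per the labels' protocols. The authors deposited raw counts per gene for 23 libraries of 24 samples, with CPM beside them, which equal the count over the column total within 0.0005. The deposited comparison gives a log2 fold change, a p-value and its adjustment for each gene. The builds named, per the submitters' processing notes, were mm10 and GRCm38 and limma was used. The sources used here do not give the aligner, counting tool or strand setting. The repeat library of sufficient 1 was not analysed here on its own, and the column of sufficient 4 was matched by its sample number. Listed genes have over 1 CPM in at least 7 libraries.

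Counts as deposited were tested with edgeR 4.0.16 (R 4.3.3) using filterByExpr, which removed 120 genes, TMM, robust quasi-likelihood and terms for run and group, with Benjamini-Hochberg adjustment over 11020 genes. Each SE was taken as the absolute log2 fold change divided by the root of F. Residual correlations used log2 CPM with a prior count of 2. Coordinates and exon lengths are from GENCODE M21, and promoters are from RefSeq (GRCm38.p6). No libraries were identical, and the chi-square per degree of freedom was at least 31.1 over 121 pairs within groups. Named genes were the 10 chains, up to 4 called genes with the smallest p per list and the 3 genes most like each chain. Fermt3, Tln1, Tln2, Itgb1bp1, Rap1gap, Cd47, Icam1, Icam5, Vcam1, Git1, Bcar1, the further integrin chains and individual marker genes were named after their values were seen. Some genes that the lists hold are not reported here. Members and lists (10 lists, 230 genes, 150 with a row) were chosen with earlier results of these data known. Code was tested on simulated data. The alternatives tried were DESeq2 1.42.0, limma-voom 3.58.1, other scalings and filters, single runs, no run term, the replicate number as a block, and libraries left out.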

Additional observations from a re-analysis of the deposited data

How the results depend on the processing

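The counts of 1 higher and 4 lower chains were the same under other scalings, filters, DESeq2, limma-voom, no run term, run 2 alone, the replicate block and without the 3 libraries with Xist and Y-linked transcripts, an alternative chosen after seeing the data. In run 1 alone, 0 chains were higher and 0 lower, and 0 genes were higher and 0 lower, with 12 libraries and 1832 genes at an unadjusted p under 0.05. Run 2 alone gave 629 higher and 730 lower genes, and leaving out those 3 libraries gave 653 and 817, both with fewer samples than the 1163 and 1285 over all libraries. With library totals alone, 1608 genes were higher and 1027 lower, so that 61.0% of calls were higher against 47.5% with TMM. Leaving out 1 library at a time gave 828 to 1337 higher and 1056 to 1446 lower genes, 1 to 1 higher chains and 3 to 4 lower chains. The chain lost was Itgam without sufficient 1. The adjusted p of Itgam ran from 0.00286 to 0.0622 over these fits and from 0.000638 to 0.392 over the other alternatives. Itgal, which was never called, turned sign with library totals alone (0.043), with no run term (0.0083), in run 2 alone (0.11) and over the left-out libraries (-0.077 to 0.052), and Itga6 turned sign in run 2 alone (0.10). The cause of these turns was not tested. With the replicate number as a block, 892 genes were higher and 940 lower, and the members called did not change in number. Of 11 shared numbers, 6 had a correlation above 0.1 (from -0.28 to 0.29), and 1 sample pair was best matched by its own number. In 1 of the 11 both samples were in the same run. The numbers were therefore not taken to pair the samples in the main fit. Of the chains, Itgax had the lowest median per kilobase. At these depths it had 20 counts in its lowest sufficient and 13 in its lowest deficient library. The 95% intervals of Itgb1, Itgal and Itgav were built from the SE of the fit, so they include the spread between libraries.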

Other observations

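Of 17 further integrin chains, Itga3, Itga9, Itgad and Itgb5 have a row, and none passed edgeR's test (2 of 4 negative, 0 at an unadjusted p under 0.05). Itgad, an alpha chain that pairs with Itgb2, averaged 26.01 ± 34.8 CPM (n = 12, SD) in sufficient and 14.0 ± 12.7 CPM (n = 11, SD) in deficient lymphomas (log2 fold change -0.90 ± 0.76 SE, edgeR adjusted p = 0.41). Itgb5, a beta chain that pairs with Itgav, averaged 12.3 ± 16.8 CPM (n = 12, SD) against 25.7 ± 23.3 CPM (n = 11, SD; log2 fold change 1.10 ± 0.62 SE, edgeR adjusted p = 0.205). Itga9 averaged 12.5 CPM against 6.09 CPM and Itga3 averaged 4.59 CPM against 5.73 CPM.

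Of 18 T and NK cell markers, 10 have a row, and their sum ran from 256 to 839 CPM in sufficient and from 213 to 1642 CPM in deficient lymphomas. Lck, Cd2 and Zap70 had the highest means of the 10 in both groups. Lck averaged 315 CPM in sufficient and 466 CPM in deficient lymphomas and did not pass (edgeR adjusted p = 0.204). Cd8b1, the next, averaged 9.76 CPM and 11.4 CPM. The part of T or NK cells in this sum was not tested. Zap70, a kinase of T cell receptor signalling, was higher in deficient lymphomas, at 174 ± 219 CPM (n = 11, SD) against 16.3 ± 36.3 CPM (n = 12, SD; edgeR adjusted p = 0.04). Cd2, an adhesion receptor, was lower, at 75.1 ± 81.4 CPM (n = 11, SD) against 189 ± 94.0 CPM (n = 12, SD; edgeR adjusted p = 0.0473). Cd4 did not pass (log2 fold change 0.25 ± 0.64 SE, edgeR adjusted p = 0.809).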
